A study of Mus musculus with 34 samples.

Results

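Glycolysis splits glucose into pyruvate, and its side routes feed or drain it. This account covers 35 genes of that network that were listed by name: the hexokinases, the enzymes of upper and lower glycolysis, lactate dehydrogenase and the lactate carriers, the enzymes that set the level of the activator fructose 2,6-bisphosphate, pyruvate dehydrogenase kinases, glycogen enzymes and the pentose phosphate enzymes. All 35 were found among the 27179 gene identifiers counted, and 34 passed the filter on low counts; lactate dehydrogenase B (Ldhb), with 10 counts in 4 of 34 libraries, did not. The RNA was that of CD4 T cells, isolated naive from C57BL/6 mice and kept for 3.5 days on plates coated with antibodies to the receptor chain CD3 and the co-receptor CD28 and then sorted by flow cytometry. Every group shares that strain, stimulus and culture time. In the labels a code for the culture is followed by a number. Code Tfh2 carried the numbers 1e4 (6 libraries), 2e4 (5), 4e4 (6) and 6e4 (6), and codes Tfh5 (6) and TfhA (5) carried 4e4. The series title names TGF-β, the TFH and TH17 fates and c-Maf, but the labels do not say what the codes, the numbers or the sort gate were, nor the sex or age of the mice, nor whether replicates were separate cultures or animals. The p-values below therefore measure the spread between these libraries, which may be technical.

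Hexokinase traps glucose in the cell as glucose 6-phosphate. That molecule can go down glycolysis, into glycogen, or into the pentose phosphate pathway, whose oxidative arm makes NADPH and whose non-oxidative arm trades sugars of different lengths with glycolysis. Phosphofructokinase is the committed step of glycolysis and is switched on by fructose 2,6-bisphosphate. Activated T cells are known for taking up much glucose and releasing lactate even where oxygen is plentiful. Messenger RNA levels, which are what was measured here, do not give the flux through any of these steps.

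Libraries held 4481509 to 9934245 counts, and the members together held 19433 to 70241 of them. Levels are given as CPM, the counts of a gene relative to the TMM-normalized size of its library, on the usual scale. Each read marks the 3′ end of a transcript, so a count does not scale with transcript length. Counting can still differ between genes, as for reads that fit several places, so levels of different genes are compared only as counted. A pair of identifiers without a symbol took 48.34% of all counts. Of the counts left, the members took 0.715% ± 0.046 (SD, n = 6) in Tfh2_1e4, 1.0% ± 0.072 (n = 5) in Tfh2_2e4, 1.34% ± 0.103 (n = 6) in Tfh2_4e4 and 1.40% ± 0.094 (n = 6) in Tfh2_6e4. They took 1.13% ± 0.093 (n = 6) in Tfh5_4e4 and 1.03% ± 0.122 (n = 5) in TfhA_4e4. In these bulk samples a lower share of cells that express a gene and less of its RNA per cell cannot be told apart. The 8 T cell markers were present in every group and summed to 1506 to 2182 CPM per library, while markers of B cells, myeloid cells and red cells summed to at most 3.48 CPM. In TfhA_4e4 a list of 6 CD8 T cell and NK cell markers summed to 98.3 to 141 CPM, against at most 26.5 CPM in any other library. That sum came mostly from Nkg7, at 106.5 CPM, with Cd8b1 at 9.69 CPM (7.60 in Tfh2_4e4) and Klrk1 at 6.49 CPM (0.51 in Tfh2_4e4), while Klrb1c was at 0.17 CPM, Cd8a at 0.12 CPM and Ncr1 at 0. Nkg7 and Klrk1 were higher than in Tfh2_4e4 by the edgeR test; Cd8b1 did not pass, and the other 3 were under the filter on low counts. The T cell marker sum of TfhA_4e4 was 1553 to 1676 CPM against 1885 to 2098 CPM in Tfh2_4e4, with 4 of the 8 markers lower. In that comparison 15.5% of all genes were higher and 17.4% lower. Tfh2_4e4 replicate 3 (26.5 CPM) and Tfh2_2e4 replicate 6 (19.2 CPM) had the highest sums outside TfhA_4e4, and every count below was also run without both. Mitochondrial ribosomal RNA took 12.6% to 17.3% of the counts left in TfhA_4e4, above every other library. The part of these shifts in the results was not tested except where a value is given.

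By counts, the highest member RNAs were those of aldolase A (Aldoa), which cleaves fructose bisphosphate, the pyruvate kinase gene Pkm and lactate dehydrogenase A (Ldha), which turns pyruvate into lactate. Their group means in Tfh2_4e4 were 1370.3, 1286 and 972 CPM. Next came glucose-6-phosphate isomerase (Gpi1) at 628 CPM, triosephosphate isomerase (Tpi1) at 579 CPM and platelet-type phosphofructokinase (Pfkp) at 354 CPM. As counted, glyceraldehyde-phosphate dehydrogenase (Gapdh) gave 4.08 CPM, phosphoglycerate kinase (Pgk1) 9.94 CPM, phosphoglycerate mutase (Pgam1) 15.7 CPM and enolase 1 (Eno1) 13.8 CPM. These 4 enzymes act in sequence between triose phosphate and pyruvate kinase. Over the last 300 bases of its protein-coding transcripts, 78.3% of the 50-base words of Gapdh and 86.9% of those of Eno1 also occurred in transcripts of other genes (175 genes for Gapdh, 169 of them pseudogenes). For Pgk1 and Pgam1 that share was 0%. It was 25.0% for Pfkp, 24.0% for Gpi1 and 20.7% for Pkm. Ldha had 20.5%, Tpi1 18.1% and Aldoa 13.6%. How reads that fit several places were counted is not given in the sources used here. The part of such reads in the low values or in the high ones was not tested. All levels are therefore given as counted, and those of Gapdh, Eno1, Pgk1 and Pgam1 are not used to rank these enzymes against the others.

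**Figure D1:**
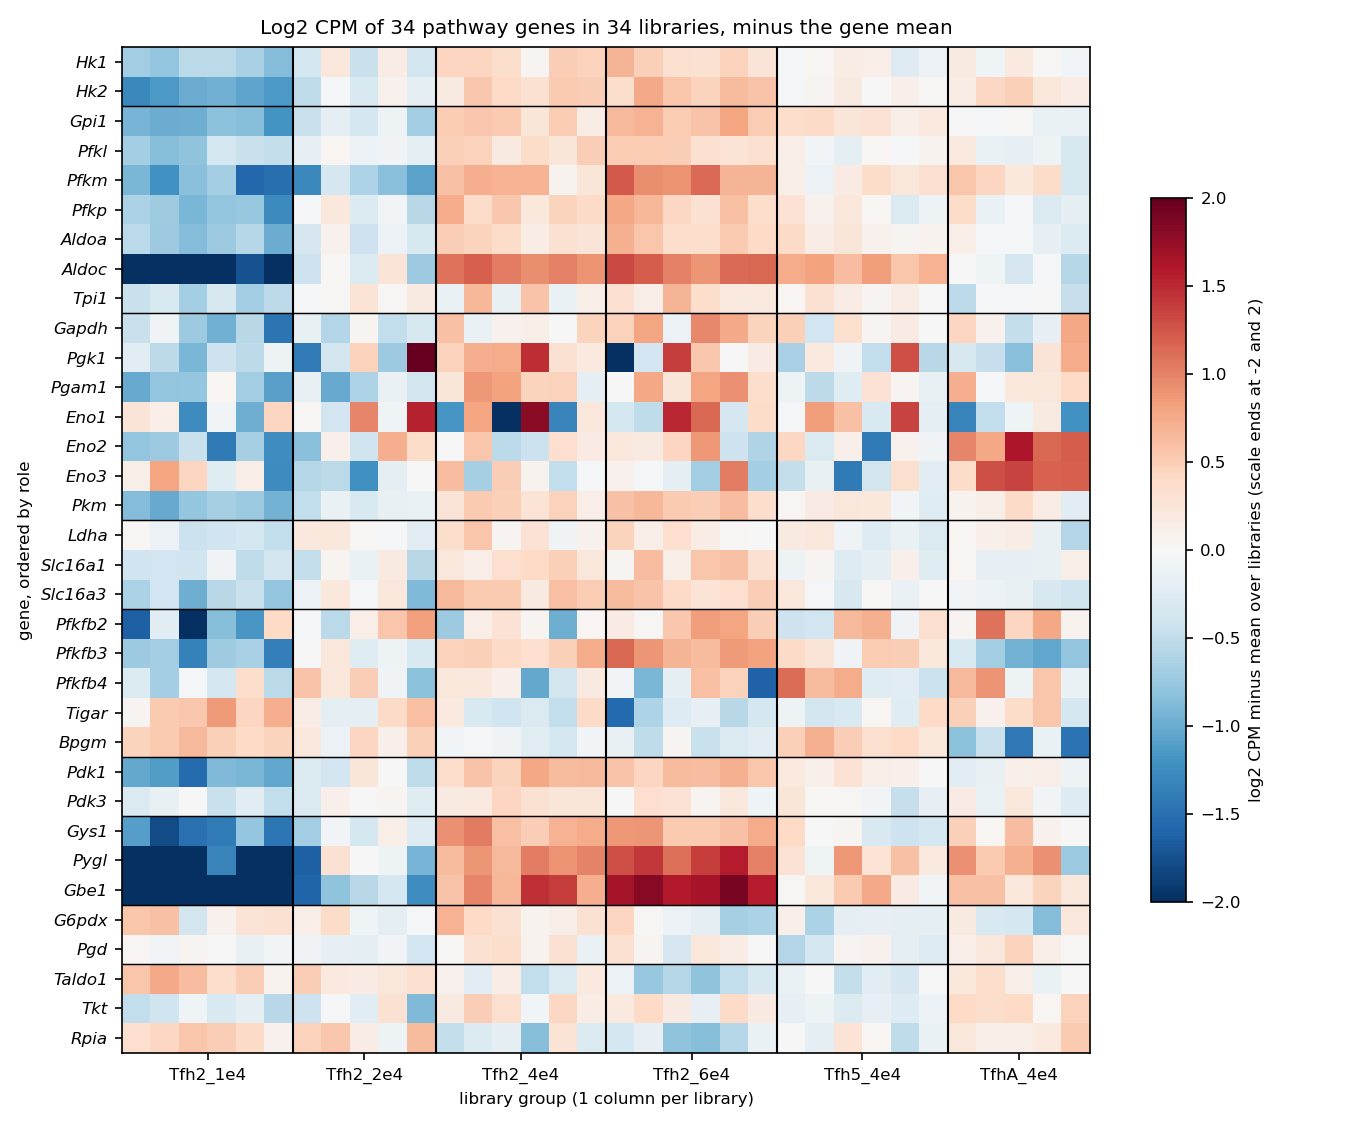
Heat map of log2 CPM of the 34 tested genes (rows, ordered by role, with lines between roles) in the 34 libraries (columns, grouped by label), each minus the gene's mean over all libraries; colours stop at -2 and 2. Most rows turn from blue in Tfh2_1e4 to red in Tfh2_4e4 and Tfh2_6e4, while Tigar, Bpgm, Taldo1 and Rpia run the other way.

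Across the 4 numbers within Tfh2, most genes of the route from glucose to lactate rose, as did the glycogen genes, while 4 genes of side branches fell. Change was fitted as the straight line through the 4 group means over log2 of the number, so that a slope is the log2 change per doubling. Of the 34 genes tested, 24 rose and 4 fell, with a median slope of 0.39 against -0.0028 over all genes; of all 11357 genes 24.1% rose and 22.8% fell. Both hexokinases rose, as did all 7 upper glycolysis genes, 4 of 7 in lower glycolysis, all 3 tested lactate genes, both pyruvate dehydrogenase kinases and all 3 glycogen genes. Neither oxidative pentose gene passed. Leaving out any 1 library gave 27 to 29 genes past the threshold. Of the 8 T cell markers 6 rose and 1 fell along the same numbers, and both mitochondrial rRNA genes rose. With the mitochondrial rRNA share as a covariate 23 members rose and 4 fell, Pfkfb2 being the one lost. The count over all genes in that fit is not given here. The part of the T cell markers in the slopes was not tested.

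Among the entry enzymes, hexokinase 2 (Hk2, the inducible form) ran from 66.2 to 83.4 CPM (median 75.7) in Tfh2_1e4 through 114, 131, 142, 159 and 172 CPM in Tfh2_2e4 and 184 to 235 CPM (median 221) in Tfh2_4e4 to 208 to 274 CPM (median 239) in Tfh2_6e4. The 1e4, 2e4 and 4e4 libraries did not overlap, whereas 4e4 and 6e4 did. Its slope was 0.65 ± 0.04, edgeR adjusted p = 5.64e-20. Hexokinase 1 (Hk1, the housekeeping form) had a slope of 0.44 ± 0.04, edgeR adjusted p = 3.43e-13. The muscle phosphofructokinase gene Pfkm was scarce and had a steeper slope than the more abundant Pfkl and Pfkp, 0.85 against 0.41 ± 0.04 and 0.54 ± 0.04; the differences between these slopes were not tested. Aldoa rose from 542 to 749 CPM (median 655) in Tfh2_1e4 to 1386 to 1770.4 CPM (median 1489) in Tfh2_6e4, with no overlap. Aldolase C (Aldoc, best known from brain) rose by far more. It was at 12.5 to 34.8 CPM (median 20.8) in Tfh2_1e4, 70.4, 88.3, 97.1, 119 and 141 CPM in Tfh2_2e4, 219 to 268 CPM (median 237) in Tfh2_4e4 and 217 to 292 CPM (median 258) in Tfh2_6e4. Every 2e4 library lay above every 1e4 library and below every 4e4 library. The slope was 1.40 ± 0.06, edgeR adjusted p = 5.63e-24.

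Further down, Pkm had a slope of 0.54 ± 0.03, edgeR adjusted p = 1.78e-17 and Pgam1 0.53 ± 0.08, edgeR adjusted p = 1.07e-07. Gapdh also passed, at 0.49, with no Tfh2 library above 6.92 CPM, and so did the neuronal enolase gene Eno2, at 0.38. Pgk1, Eno1 and the muscle enolase gene Eno3 had slopes of 0.29, 0.19 and 0.02 and did not pass. Ldha moved little for its abundance. Its libraries ran from 590.2 to 840.3 CPM (median 639.9) in Tfh2_1e4 to 824 to 1126 CPM (median 919) in Tfh2_6e4, which overlap, with a slope of 0.19 ± 0.04, edgeR adjusted p = 0.000225. The lactate exporter Slc16a3 (MCT4) rose from 97.5 to 148 CPM (median 128) to 233 to 298 CPM (median 262) between the same groups, without overlap and with a slope of 0.45 ± 0.04, edgeR adjusted p = 2.17e-11. Its relative Slc16a1 (MCT1), which carries lactate both ways, had 0.31 ± 0.04, edgeR adjusted p = 6.04e-08.

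The regulators did not move together. Pfkfb3, whose kinase-dominant enzyme makes fructose 2,6-bisphosphate, rose from 15.4 to 25.3 CPM (median 24.1) in Tfh2_1e4 to 62.0 to 88.3 CPM (median 71.1) in Tfh2_6e4 with no overlap (0.66 ± 0.05, edgeR adjusted p = 2.69e-15). Pfkfb2, at under 5 CPM, had a slope of 0.37 ± 0.13, edgeR adjusted p = 0.0205; it no longer passed without Tfh2_1e4 replicate 1 (0.31), replicate 3 (0.29) or replicate 5 (0.33), nor with the mitochondrial rRNA covariate (0.33, adjusted p = 0.0559). Pfkfb4 did not pass. Tigar, which breaks down fructose 2,6-bisphosphate, fell (-0.40 ± 0.08, edgeR adjusted p = 3.48e-05). So did Bpgm, which makes 2,3-bisphosphoglycerate in a side route of glycolysis (-0.30 ± 0.06, edgeR adjusted p = 6.19e-05). Bpgm libraries lay at 14.9 to 17.9 CPM (median 15.6) in Tfh2_1e4 and 7.90 to 11.7 CPM (median 9.48) in Tfh2_6e4 and did not overlap. Pyruvate dehydrogenase kinases block the entry of pyruvate into the citric acid cycle. Of these, Pdk1 rose from 21.4 to 33.8 CPM (median 30.4) to 83.8 to 102 CPM (median 94.4) between those groups (0.67 ± 0.04, edgeR adjusted p = 4.90e-18), while the slope of Pdk3 was 0.19 ± 0.04, edgeR adjusted p = 0.00012.

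Of the glycogen genes, Gbe1 and Pygl had the steepest slopes of the 34 genes, ahead of Aldoc. The branching enzyme gene Gbe1 was at 1.77 to 5.69 CPM (median 5.07) in Tfh2_1e4, 7.98, 10.4, 14.1, 16.7 and 19.3 CPM in Tfh2_2e4, 36.7 to 68.3 CPM (median 44.7) in Tfh2_4e4 and 73.2 to 91.9 CPM (median 77.9) in Tfh2_6e4. None of these 4 ranges overlapped another. Its slope was 1.65 ± 0.08, edgeR adjusted p = 2.56e-22. Pygl, the liver-type glycogen phosphorylase that releases glucose from glycogen, was at 0.785 to 3.38 CPM (median 1.40) in Tfh2_1e4 and 17.7 to 26.5 CPM (median 22.3) in Tfh2_6e4 (1.44 ± 0.11, edgeR adjusted p = 1.08e-15). Gys1, the glycogen synthase of most tissues, had a slope of 0.82 ± 0.06, edgeR adjusted p = 3.16e-16. Genes for building glycogen and for breaking it down rose together.

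Genes of the pentose phosphate pathway moved in both directions. The oxidative enzymes glucose-6-phosphate dehydrogenase (G6pdx) and 6-phosphogluconate dehydrogenase (Pgd) had slopes of -0.09 and 0.08 and did not pass. In the non-oxidative arm, transaldolase (Taldo1) fell (-0.37 ± 0.04, edgeR adjusted p = 2.75e-09), from 86.1 to 138 CPM (median 117) in Tfh2_1e4 to 46.7 to 75.2 CPM (median 56.6) in Tfh2_6e4, with no overlap. Rpia, the ribose-5-phosphate isomerase, fell as well (-0.36 ± 0.06, edgeR adjusted p = 1.52e-06). Transketolase (Tkt), which works beside transaldolase, rose (0.24 ± 0.05, edgeR adjusted p = 1.72e-05). Within Tfh2 the pentose genes thus hold 1 rise and 2 falls among the 5 tested, where 24.1% of all genes rose and 22.8% fell. So small a set cannot be set apart from those shares.

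**Figure D2:**
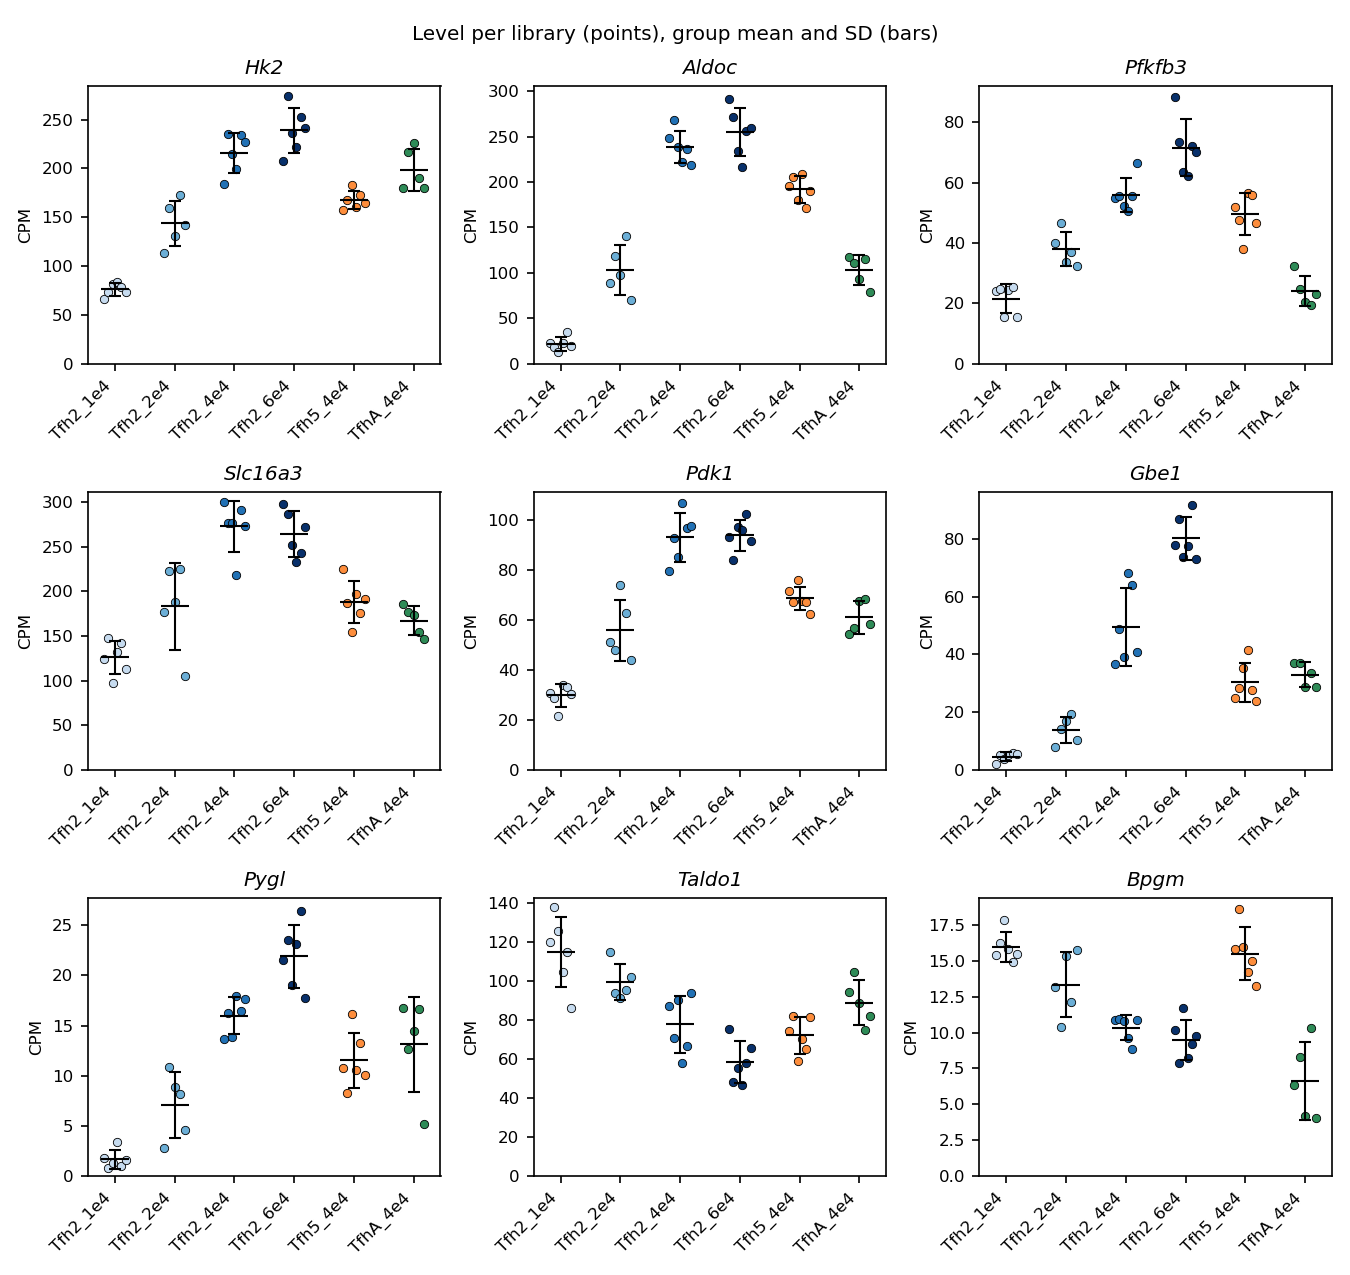
CPM of 9 genes per library (points) in the 6 groups, with the group mean and SD (bars); each vertical axis starts at 0. Hk2, Aldoc, Pfkfb3, Slc16a3, Pdk1, Gbe1 and Pygl climb along the Tfh2 numbers while Taldo1 and Bpgm decline, and in TfhA_4e4 Aldoc and Pfkfb3 sit below every Tfh2_4e4 library.

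Most of this change lay below the number 4e4. Between Tfh2_1e4 and Tfh2_2e4, 15 of 34 members passed, all of them higher (all genes: 4.06% higher, 1.2% lower). Between Tfh2_2e4 and Tfh2_4e4, 19 rose and 1, Rpia, fell (all genes: 7.59% higher, 5.4% lower). The rises of Pdk3, Slc16a1 and Tkt between 2e4 and 4e4 were lost without Tfh2_2e4 replicate 6, at 0.28, 0.36 and 0.32, and that of Pdk3 also without any of Tfh2_2e4 replicates 1 and 4 and Tfh2_4e4 replicates 2, 3, 4, 5 and 6 (0.29 to 0.35). Between Tfh2_4e4 and Tfh2_6e4 only Gbe1 passed (0.69 ± 0.17, edgeR adjusted p = 0.0262), against 0.616% of all genes higher and 0.863% lower. It was lost without Tfh2_4e4 replicate 1, 3 or 6 or Tfh2_6e4 replicate 2 or 5 (0.63 to 0.67). The steps differ in length on the log scale, from 1e4 to 2e4 and 2e4 to 4e4 being a doubling each and 4e4 to 6e4 less than that. Of genes that rose in both lower steps, Aldoc gained more in the first (2.25 ± 0.16 against 1.21 ± 0.15), whereas Gbe1 gained 1.59 ± 0.22 and then 1.87 ± 0.20. Pfkm did not pass in the first step (0.30) and rose in the second (1.34 ± 0.20, edgeR adjusted p = 2.54e-06). Differences between steps were not tested.

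At the number 4e4, TfhA libraries held less RNA than Tfh2 libraries for most of upper glycolysis, lactate export and the regulator Pfkfb3. They held more for the enolase genes Eno2 and Eno3. Of 34 members, 3 were higher and 15 lower, where 15.5% of all genes were higher and 17.4% lower; the median log2 difference was -0.31 for the members and -0.0087 for all genes. The lower genes were 6 of 7 in upper glycolysis, 1 of 2 hexokinases, both lactate carriers, 2 of 5 regulators, 1 of 2 pyruvate dehydrogenase kinases, 2 of 3 glycogen genes and 1 of 2 oxidative pentose genes. The higher ones were Eno2, Eno3 and Rpia. With the share of mitochondrial rRNA as a covariate, 8 members passed (1 higher, 7 lower): Eno2 (1.47), Gpi1 (-0.37), Pfkl (-0.46), Aldoc (-1.18), Slc16a1 (-0.62), Slc16a3 (-0.66), Pfkfb3 (-1.29) and Pdk1 (-0.71). The other 10 no longer passed, though TfhA_4e4 lay above every other library in that share, so covariate and code cannot be fully told apart. Of these, Tpi1 (-0.39 before, -0.12 with the covariate), Hk1 (-0.32, -0.15), Gys1 (-0.49, -0.21), Pfkp (-0.50, -0.27) and Aldoa (-0.41, -0.26) moved by more than 1.5 times, while Gbe1 (-0.65), G6pdx (-0.58), Bpgm (-0.46), Rpia (0.48) and Eno3 (1.01) moved by less. How many of all genes passed with the covariate is not given here, so the drop cannot be called particular to the members.

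Pfkfb3 and Aldoc moved furthest down. Pfkfb3 was at 19.4, 20.6, 23.0, 24.7 and 32.2 CPM in TfhA_4e4 and at 50.5 to 66.4 CPM (median 55.2) in Tfh2_4e4. The groups did not overlap, and the fold was 2.34-fold lower in TfhA_4e4 (-1.23 ± 0.15, edgeR adjusted p = 3.50e-09). Aldoc was at 79.0, 93.0, 111, 115 and 117 CPM in TfhA_4e4 and at 219 to 268 CPM (median 237) in Tfh2_4e4, again without overlap and 2.31-fold lower (-1.21 ± 0.15, edgeR adjusted p = 1.19e-08). Aldoa fell much less. It was at 893, 968, 1053, 1069 and 1183 CPM against 1199.9 to 1518 CPM (median 1367), with no overlap (-0.41 ± 0.10, edgeR adjusted p = 0.000972). Gpi1, the isomerase after hexokinase, was at 425, 429, 459, 472 and 474 CPM against 521 to 681 CPM (median 668), again apart (-0.47 ± 0.10, edgeR adjusted p = 9.11e-05). The phosphofructokinases Pfkl and Pfkp were lower by 0.47 and 0.50 on the log2 scale and their libraries overlapped with Tfh2_4e4. Tpi1 was lower as well (-0.39 ± 0.13, edgeR adjusted p = 0.0154), but not without Tfh2_4e4 replicate 2 (-0.29) or 4 (-0.31) or TfhA_4e4 replicate 1 (-0.33) or 6 (-0.33).

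Both lactate carriers were lower in TfhA_4e4. Slc16a3 was at 147, 154, 174, 177 and 186 CPM against 219 to 301 CPM (median 277), with no overlap (-0.71 ± 0.13, edgeR adjusted p = 2.47e-05). Slc16a1 had -0.37 ± 0.12, edgeR adjusted p = 0.02 and did not pass without TfhA_4e4 replicate 3 (-0.34, adjusted p = 0.0501). Ldha itself did not pass (-0.30 ± 0.12, edgeR adjusted p = 0.0607). Pdk1 was at 54.1, 56.6, 58.3, 67.3 and 68.3 CPM against 79.4 to 107 CPM (median 94.7), below every Tfh2_4e4 library (-0.61 ± 0.12, edgeR adjusted p = 5.26e-05). Of the hexokinases Hk1 was lower (-0.32 ± 0.11, edgeR adjusted p = 0.0254, and not past without TfhA_4e4 replicate 2 or 6, -0.29 each), while Hk2 had -0.12 ± 0.10, edgeR adjusted p = 0.373. The glycogen genes Gys1 and Gbe1 were lower by 0.49 and 0.59 on the log2 scale with overlapping libraries, and Pygl did not pass.

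Enolase makes phosphoenolpyruvate, and its genes Eno2 and Eno3 stood out. Eno2 was at 7.46, 8.55, 9.70, 10.1 and 13.4 CPM in TfhA_4e4 and 2.93 to 6.34 CPM (median 4.58) in Tfh2_4e4. All 5 TfhA_4e4 libraries were above all 6 of Tfh2_4e4, 2.18-fold higher (1.13 ± 0.30, edgeR adjusted p = 0.00284). Eno3 was at 5.37, 9.58, 9.64, 10.4 and 10.8 CPM against 2.56 to 6.40 CPM (median 4.21); 4 of the 5 libraries lay above every Tfh2_4e4 library and the fold was 2.10-fold (1.07 ± 0.33, edgeR adjusted p = 0.00986). These are low levels, and Eno1, the form of most tissues, had -0.76 ± 0.48, edgeR adjusted p = 0.23 with wide spread. Bpgm was lower, at 4.0, 4.14, 6.37, 8.29 and 10.3 CPM against 8.87 to 11.0 CPM (median 10.8) (-0.62 ± 0.19, edgeR adjusted p = 0.00963), but not without TfhA_4e4 replicate 3 (-0.49, adjusted p = 0.0532). Rpia was higher (0.51 ± 0.17, edgeR adjusted p = 0.0187), but not without Tfh2_4e4 replicate 4 (0.41) or TfhA_4e4 replicate 6 (0.43). G6pdx sat at the threshold (-0.52 ± 0.21, edgeR adjusted p = 0.0487). It was lost without any of Tfh2_4e4 replicates 1, 2, 3 and 6 and TfhA_4e4 replicates 2, 3 and 5 (-0.53 to -0.38), and with DESeq2 (-0.50, adjusted p = 0.0751).

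**Figure D3:**
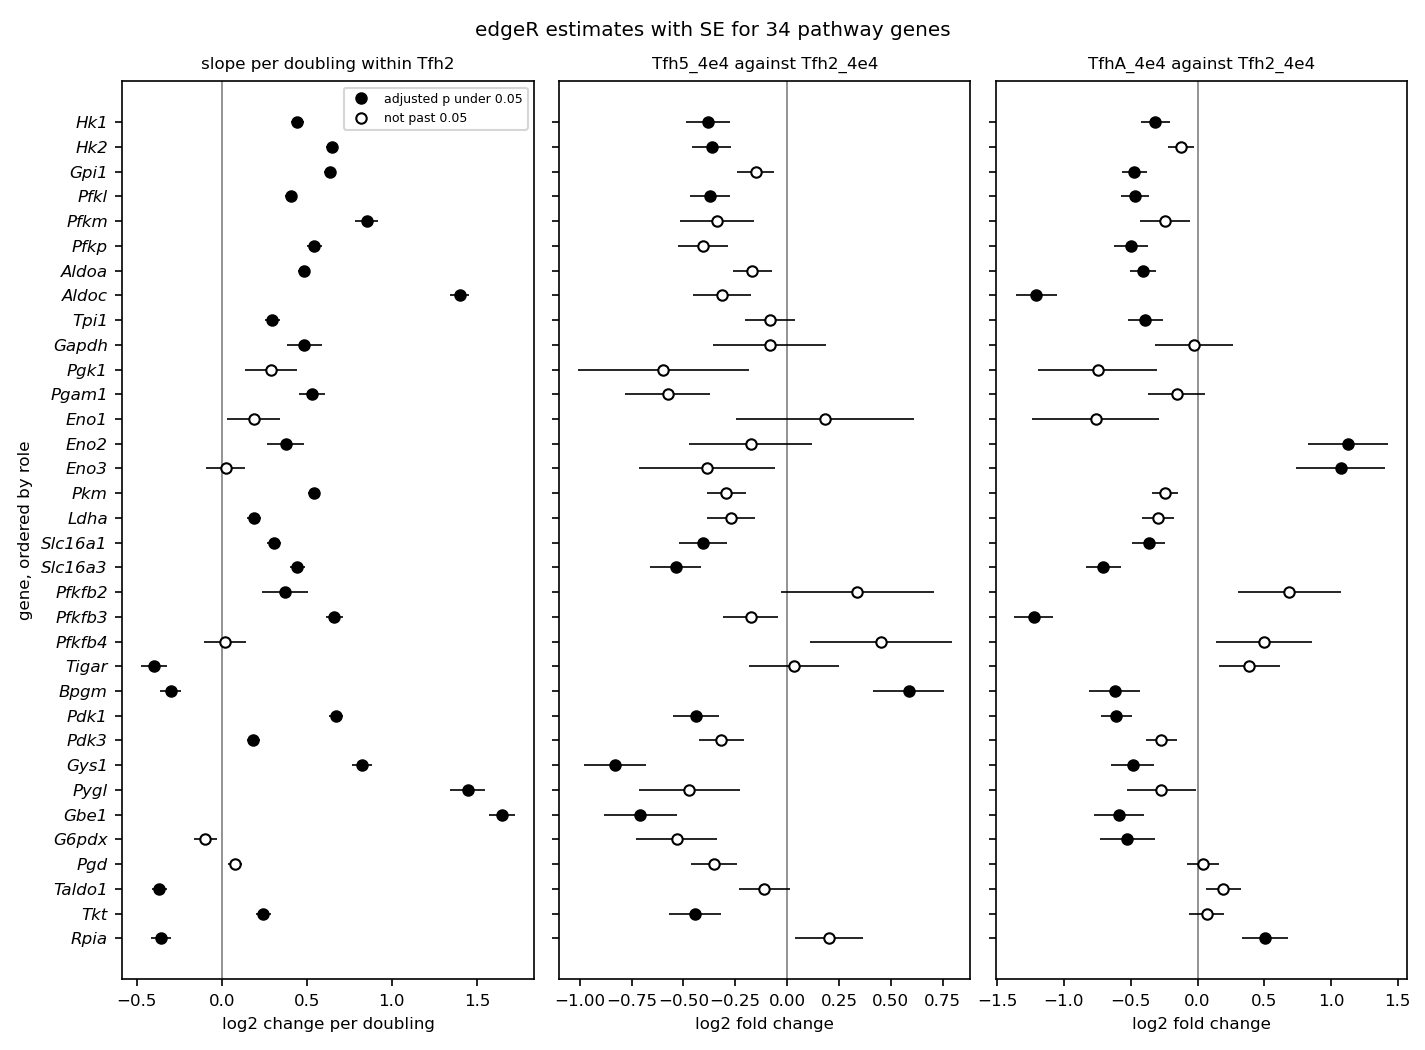
Log2 change of the 34 tested genes (rows, by role) with its SE, for the slope per doubling within Tfh2, Tfh5_4e4 against Tfh2_4e4 and TfhA_4e4 against Tfh2_4e4; filled points passed at an adjusted p under 0.05. The horizontal scales differ between panels, and 24, 1 and 3 genes passed upward against 4, 9 and 15 downward.

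Tfh5 libraries differed from Tfh2 libraries at 4e4 in fewer genes, and mostly downward. Of the members 1 was higher and 9 lower, while 1.41% of all genes were higher and 1.7% lower; the median log2 difference was -0.33 against -0.0093 over all genes. This comparison shares its Tfh2_4e4 libraries with the one above. Without 1 library the number past the threshold ran from 6 (without Tfh2_4e4 replicate 5 or Tfh5_4e4 replicate 2 or 3) to 13 (without Tfh2_4e4 replicate 6), and with the DESeq2 test it was 13. The lower genes were Hk1, Hk2, Pfkl, Slc16a1, Slc16a3, Gys1, Gbe1, Pdk1 and Tkt, and the higher one was Bpgm.

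Gys1 had the largest difference. It was at 23.1 to 40.8 CPM (median 28.0) in Tfh5_4e4 and 43.6 to 63.7 CPM (median 51.0) in Tfh2_4e4, with no overlap (-0.83 ± 0.15, edgeR adjusted p = 0.000423). Gbe1 was at 23.7 to 41.5 CPM (median 28.1) against 36.7 to 68.3 CPM (median 44.7), with overlap (-0.71 ± 0.18, edgeR adjusted p = 0.0151), and without Tfh2_4e4 replicate 4 the value was -0.59 (adjusted p = 0.0508). Hk2 was at 157 to 183 CPM (median 166) against 184 to 235 CPM (median 221), without overlap (-0.36 ± 0.09, edgeR adjusted p = 0.0199). Pdk1 libraries lay at 62.5 to 76.1 CPM (median 67.3), below all of Tfh2_4e4 (-0.44 ± 0.11, edgeR adjusted p = 0.0161). The exporter Slc16a3 was lower by 0.54 on the log2 scale (edgeR adjusted p = 0.0064). Aldoc and Pfkfb3, the genes furthest down in TfhA_4e4, had -0.31 ± 0.14, edgeR adjusted p = 0.269 and -0.18 ± 0.13, edgeR adjusted p = 0.59 here and did not pass, although no Aldoc library of Tfh5_4e4 reached the Tfh2_4e4 range.

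Bpgm was at 13.3 to 18.7 CPM (median 15.4) in Tfh5_4e4 and 8.87 to 11.0 CPM (median 10.8) in Tfh2_4e4, without overlap (0.59 ± 0.17, edgeR adjusted p = 0.0432). That call was lost without any of the 6 Tfh2_4e4 libraries or Tfh5_4e4 replicate 1, 2, 3 or 5 (0.52 to 0.60). Tkt was lower (-0.44 ± 0.13, edgeR adjusted p = 0.0373), and this was lost without Tfh2_4e4 replicate 2, 3 or 5 or any of the 6 Tfh5_4e4 libraries (-0.46 to -0.40). Slc16a1 (-0.41) was lost without Tfh2_4e4 replicate 3, 4 or 5 or Tfh5_4e4 replicate 1, 3, 4 or 6 (-0.42 to -0.38). Hk1 (-0.38) was lost without Tfh2_4e4 replicate 2 or 5 or Tfh5_4e4 replicate 1, 2, 5 or 6 (-0.39 to -0.34), and Pfkl (-0.37) without Tfh5_4e4 replicate 2 (-0.36) or 3 (-0.34).

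Set directly against each other at 4e4, TfhA and Tfh5 differed in 10 members, 5 higher and 5 lower in TfhA_4e4, with 19.1% of all genes higher and 20.4% lower. The higher genes were Eno2, Eno3, Hk2, Pgd and Tkt and the lower ones Bpgm, Pfkfb3, Aldoc, Gpi1 and Aldoa. Eno3 was 2.75-fold higher (1.46 ± 0.34, edgeR adjusted p = 0.000453) and Eno2 2.47-fold higher (1.30 ± 0.30, edgeR adjusted p = 0.000517), each without overlap. Bpgm had its widest gap here, with every TfhA_4e4 library below every Tfh5_4e4 library (-1.21 ± 0.19, edgeR adjusted p = 1.10e-06). Pfkfb3 (-1.05 ± 0.15, edgeR adjusted p = 9.30e-08) and Aldoc (-0.89 ± 0.15, edgeR adjusted p = 4.17e-06) did not overlap either. In the pentose pathway Tkt was at 77.9, 96.8, 99.3, 99.5 and 104 CPM in TfhA_4e4 and 62.6 to 70.3 CPM (median 67.2) in Tfh5_4e4, without overlap (0.51 ± 0.13, edgeR adjusted p = 0.00156). The NADPH-making enzyme Pgd was higher too (0.39 ± 0.12, edgeR adjusted p = 0.00656). The calls of Hk2 (0.24) and Aldoa (-0.24) were the weakest. Hk2 was lost without Tfh5_4e4 replicate 1, 2, 4, 5 or 6 or TfhA_4e4 replicate 2, 3 or 5 (0.19 to 0.25), and Aldoa without Tfh5_4e4 replicate 1, 2 or 3 or TfhA_4e4 replicate 3, 5 or 6 (-0.25 to -0.17). With the mitochondrial rRNA share as a covariate Aldoa (-0.09) and Gpi1 (-0.21) did not pass, and Ldha, at -0.02 without it, was higher in TfhA_4e4 by 0.47 (edgeR adjusted p = 0.021). Gys1 (0.63, edgeR adjusted p = 0.0445) and Taldo1 (0.52, edgeR adjusted p = 0.0372) were then higher as well. That share was 12.6% to 17.3% in TfhA_4e4 and 8.37% to 11.1% in Tfh5_4e4. Since these ranges do not meet, the covariate and the code cannot be fully told apart. Ldha had a within-group correlation of -0.62 with the share.

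To place both codes along the Tfh2 numbers, they were also set against Tfh2_2e4. Tfh5_4e4 had 6 members higher and 1 lower than Tfh2_2e4 (all genes: 5.79% higher, 5.19% lower), and TfhA_4e4 had 12 higher and 2 lower (all genes: 15.2% higher, 16.1% lower). In Tfh5_4e4 the genes above Tfh2_2e4 were Gbe1 (1.16), Pfkm (1.0), Aldoc (0.90), Gpi1 (0.61), Aldoa (0.38) and Pkm (0.30), and Taldo1 was below it (-0.47). That of Pkm was lost without Tfh2_2e4 replicate 1, 4, 5 or 6 or Tfh5_4e4 replicate 1, 2, 3 or 4 (0.24 to 0.31), and that of Taldo1 without Tfh2_2e4 replicate 1 (-0.41). In TfhA_4e4 the enolase genes Eno3 (1.6) and Eno2 (1.11) led together with Gbe1 (1.28) and Pfkm (1.09), and Bpgm (-0.99) and Pfkfb3 (-0.67) were below. Aldoc in TfhA_4e4, at a mean of 103 CPM, differed from Tfh2_2e4, at 103 CPM, by 0.01 ± 0.16 on the log2 scale. Members thus did not sit at a single place along the Tfh2 numbers in TfhA_4e4: Gbe1 lay between 2e4 and 4e4, and Pfkfb3 at 24.0 CPM lay nearest Tfh2_1e4 at 21.5 CPM. Among the smaller rises of TfhA_4e4 over Tfh2_2e4, those of Hk2 (0.39 to 0.60), Pkm (0.27 to 0.61) and Tkt (0.38 to 0.74) passed under every alternative. Others were not firm. That of Gpi1 was lost without Tfh2_2e4 replicate 1 or 6 or TfhA_4e4 replicate 1 or 2 (0.18 to 0.26). That of Gys1 was lost without Tfh2_2e4 replicate 1, 4 or 6 or TfhA_4e4 replicate 1 or 3 (0.39 to 0.46), and that of Pgd without Tfh2_2e4 replicate 6 or TfhA_4e4 replicate 2 or 3 (0.29 to 0.34). With the mitochondrial rRNA share as a covariate Bpgm (-0.81), Pgam1 (0.51) and Pygl (0.84) no longer passed.

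Where a step is shared by related genes, the share of each form in the counts of its family does not depend on how libraries are scaled. Of 32 tests (8 shares, 4 comparisons; exact two-sided permutation tests of the mean share, adjusted by Benjamini and Hochberg over the 32), 8 passed. The share of Aldoc, the minor aldolase RNA, changed in 3 of the 4 comparisons. It made up 2.06% to 4.54% (mean 3.17% ± 0.834, n = 6) of aldolase counts in Tfh2_1e4 and 13.5% to 15.4% (mean 14.4% ± 0.618, n = 6) in Tfh2_6e4, without overlap (exact permutation adjusted p = 0.0198). In TfhA_4e4 it made up 8.0% to 10.7% (mean 9.07% ± 1.09, n = 5), below all of Tfh2_4e4 (14.0% to 15.6% (mean 14.8% ± 0.598, n = 6)) and all of Tfh5_4e4 (12.2% to 15.3% (mean 13.7% ± 1.28, n = 6); exact permutation adjusted p = 0.0198 for each). Aldoa remained the main aldolase RNA in all groups.

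The kinases that guard pyruvate dehydrogenase also shifted. Pdk1 was 23.8% to 40.4% (mean 34.4% ± 5.90, n = 6) of Pdk1 and Pdk3 counts in Tfh2_1e4 and 49.4% to 58.6% (mean 55.5% ± 3.43, n = 6) in Tfh2_6e4, without overlap (exact permutation adjusted p = 0.0198). Hk2 rose from 41.6% to 47.0% (mean 44.5% ± 1.81, n = 6) of hexokinase counts to 46.2% to 57.2% (mean 54.1% ± 3.99, n = 6) between the same groups, with 1 Tfh2_6e4 library inside the Tfh2_1e4 range (exact permutation adjusted p = 0.0198). Pfkfb4 made up 10.6% to 17.4% (mean 14.0% ± 3.20, n = 5) of the Pfkfb counts in TfhA_4e4 against 2.89% to 6.57% (mean 5.25% ± 1.41, n = 6) in Tfh2_4e4 and fell from 7.12% to 17.2% (mean 11.4% ± 3.64, n = 6) in Tfh2_1e4 to 1.36% to 7.16% (mean 4.01% ± 2.17, n = 6) in Tfh2_6e4 (exact permutation adjusted p = 0.0198 for each); the latter groups overlapped. Its own CPM did not pass in any comparison, and the counts of Pfkfb3, which form most of that sum, did. Eno2 was 29.0% to 46.7% (mean 37.3% ± 7.46, n = 5) of enolase counts in TfhA_4e4 and 11.2% to 29.3% (mean 18.2% ± 7.36, n = 6) in Tfh5_4e4 (exact permutation adjusted p = 0.0346), which was lost on leaving out any of 9 of the 11 libraries (Tfh5_4e4 replicate 2, 3, 4, 5 or 6 or TfhA_4e4 replicate 1, 3, 5 or 6). As counted, Eno1 made up a mean of 28.7% and Eno3 34.1% of enolase counts in TfhA_4e4. In Tfh5_4e4 these means were 66.4% and 15.4%. Enolase counts rest on the uncertain Eno1. The shares of Pfkp (77.4% in TfhA_4e4, 78.1% in Tfh2_4e4) and Slc16a3 (75.8% and 79.8%) did not pass in any of the 4 comparisons, and Ldhb was 0% of lactate dehydrogenase counts in all but 4 libraries.

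**Figure D4:**
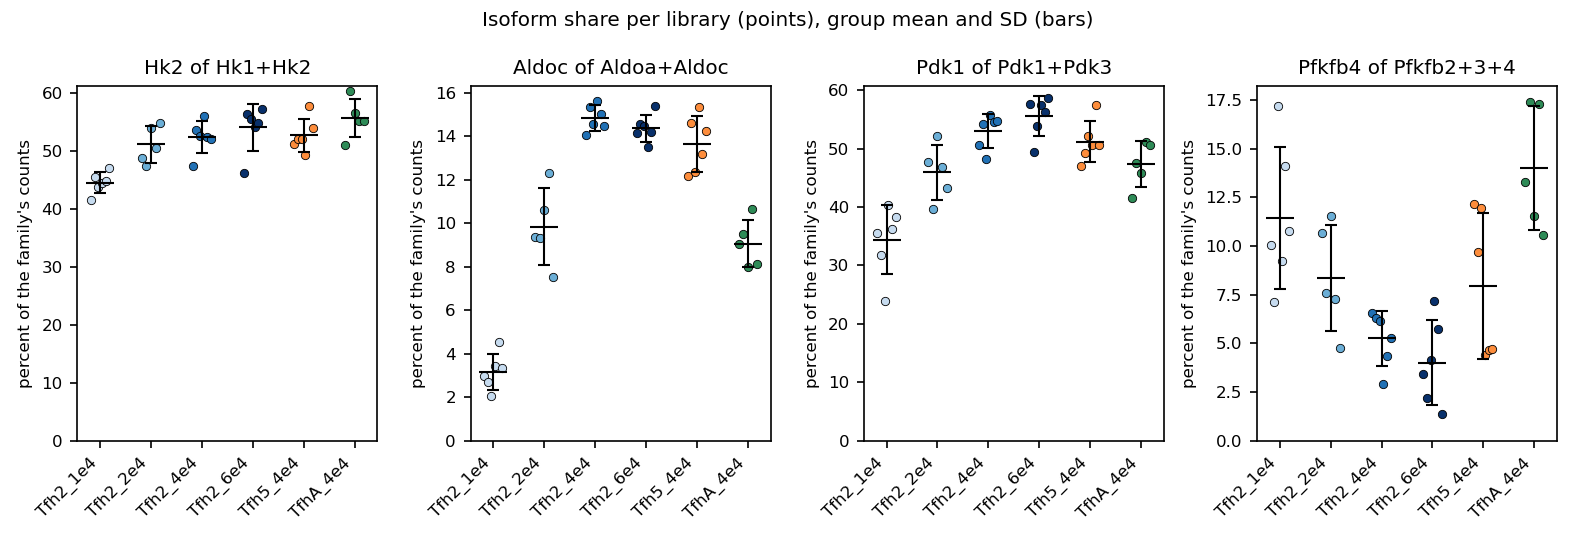
Share of Hk2, Aldoc, Pdk1 and Pfkfb4 in the counts of their families, in percent, per library (points) with the group mean and SD (bars); axes start at 0. The Aldoc share climbs from a mean of 3.17% in Tfh2_1e4 to 14.4% in Tfh2_6e4 and stands at 9.07% in TfhA_4e4.

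Because many members moved together along the Tfh2 numbers, the 250 bases before each annotated start were searched for the letters ACGTG on either strand, the core that hypoxia-inducible factors are known to bind, and for CACGTG, the E-box bound by MYC among others. CACGTG holds ACGTG on both strands, so the searches overlap. All 35 genes matched a RefSeq GRCm38.p6 promoter entry, with 51 starts in all. ACGTG occurred before 17 of the 51 starts (33.3%), in 13 of 35 genes (37.1%), and before 16.6% of all 32851 starts, in 18.5% of 27025 genes. CACGTG occurred before 5 of 51 starts (9.8%), in 5 of 35 genes (14.3%), and before 6.02% of all starts, in 6.86% of all genes. The shares over all starts and genes take in those not expressed here. A match is a description of the letters and not of binding. Genes with and without a match had both steep and shallow slopes. Of those with one, Pygl had a slope of 1.44, Pfkm 0.85 and Pfkfb3 0.66. Ldha held 5 matches before 1 of its starts and had a slope of 0.19. Its matches at 145 and 144 bases are 1 CACGTG read on both strands, and so are those at 48 and 47 bases. None of the starts of Gbe1, Aldoc, Gys1 and Pdk1 held a match, and their slopes were 1.65, 1.40, 0.82 and 0.67. The stretches below are those of Ldha (chr7:46845554-46845803, plus strand), Hk2 (chr6:82774455-82774704, minus strand), Slc16a3 (chr11:120948817-120949066, plus strand) and Gbe1 (chr16:70313699-70313948, plus strand), in mm10 coordinates, shown because they span that range. Each reads 5′ to 3′ on the strand of its gene and ends at the base before the start; capitals mark ACGTG or, for the other strand, CACGT.
Ldha: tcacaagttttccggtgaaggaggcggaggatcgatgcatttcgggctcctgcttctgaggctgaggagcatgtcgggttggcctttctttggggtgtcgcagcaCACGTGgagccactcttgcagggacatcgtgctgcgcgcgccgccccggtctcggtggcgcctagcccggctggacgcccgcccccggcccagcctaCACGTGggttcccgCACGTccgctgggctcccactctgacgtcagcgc
Hk2: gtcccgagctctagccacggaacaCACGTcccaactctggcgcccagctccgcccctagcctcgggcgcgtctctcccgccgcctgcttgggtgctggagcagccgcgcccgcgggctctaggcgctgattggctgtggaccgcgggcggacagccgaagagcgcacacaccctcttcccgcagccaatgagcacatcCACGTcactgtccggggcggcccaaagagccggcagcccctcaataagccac
Slc16a3: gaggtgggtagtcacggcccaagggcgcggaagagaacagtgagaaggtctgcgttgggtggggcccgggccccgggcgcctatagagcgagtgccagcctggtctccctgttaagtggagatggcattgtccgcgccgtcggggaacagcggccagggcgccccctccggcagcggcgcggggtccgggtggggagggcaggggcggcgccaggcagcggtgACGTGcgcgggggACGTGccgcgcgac
Gbe1: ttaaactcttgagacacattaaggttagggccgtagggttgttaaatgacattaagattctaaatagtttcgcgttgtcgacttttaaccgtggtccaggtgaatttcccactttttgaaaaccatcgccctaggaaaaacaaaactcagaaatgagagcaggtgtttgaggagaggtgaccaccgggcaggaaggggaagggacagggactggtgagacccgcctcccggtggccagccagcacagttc
In Hk2 the matches begin 226 and 52 bases before the start, and in Slc16a3 27 and 14 bases before it.

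Within groups, libraries also varied together for some members. After removal of the group means of log2 CPM, Eno1 and Tpi1 had a correlation of 0.84, Aldoa and Pfkp 0.83 and Gpi1 and Tkt 0.76 over the 34 libraries, while the median over all 561 pairs of members was 0.072. These values are a description, since the libraries of a group share their culture conditions and each gene its depth. Some libraries stood high for Eno1, Tpi1 and Pgk1 alike. In Tfh2_4e4 replicate 4, Eno1 was at 39.0 CPM, Pgk1 at 16.9 CPM and Tpi1 at 751 CPM, where the medians of that group were 8.89, 9.15 and 506 CPM. Tfh2_6e4 replicate 3 was alike, at 31.6, 15.8 and 811 CPM. In Tfh2_2e4 replicate 6, Eno1 was at 32.4 CPM and Pgk1 at 24.9 CPM. The SE of Pgk1 (0.45 for TfhA_4e4 against Tfh2_4e4) and Eno1 (0.48) was several times that of Aldoa (0.10).

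**Figure D5:**
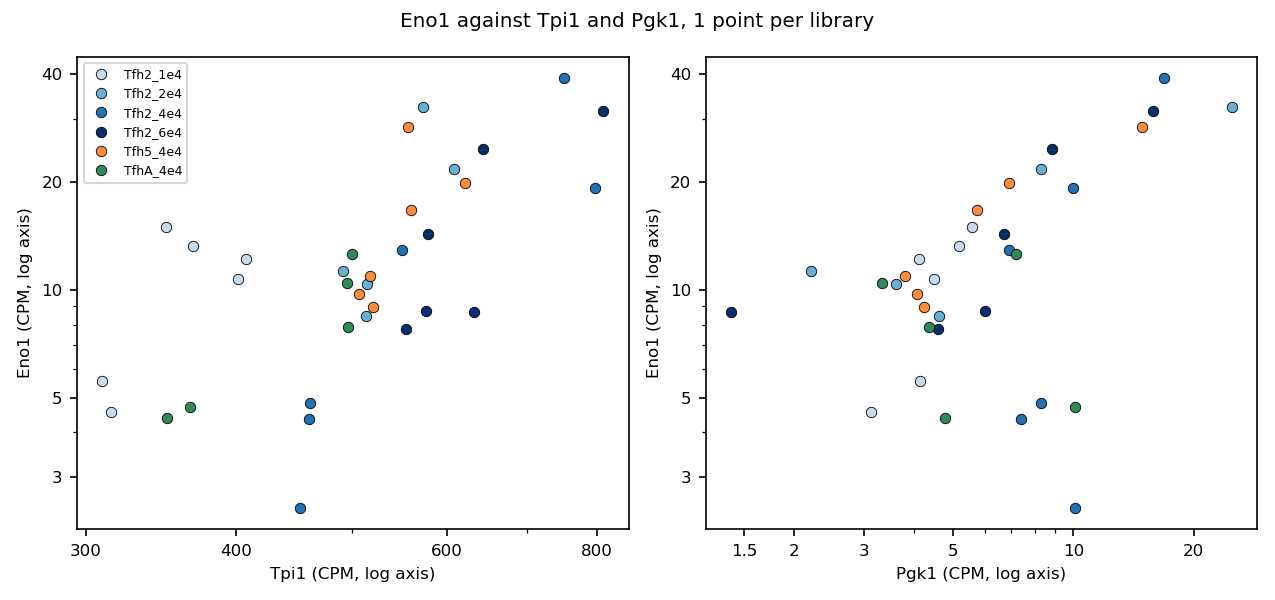
Eno1 (CPM) against Tpi1 (left) and Pgk1 (right), 1 point per library coloured by group, on log axes. A few libraries of different groups, such as Tfh2_4e4 replicate 4 at 39.0 CPM of Eno1, lie at the upper right in both panels.

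The genes around the members were taken from lists of the same network. Along the Tfh2 numbers, where 24.1% of all genes rose and 22.8% fell, of 4 glucose carriers tested 3 rose and 1 fell; Slc2a3 (GLUT3), the main one by counts, went from a mean of 10.8 CPM in Tfh2_1e4 to 416 CPM in Tfh2_6e4 (slope 2.08 ± 0.06, edgeR adjusted p = 3.45e-29), and Slc2a8 rose by 0.68. Both tested partner proteins of the lactate carriers rose, Bsg by 0.63 and Emb by 0.54 per doubling. Among 14 other glycogen genes 6 rose and 2 fell, led by phosphoglucomutase Pgm1 (0.89) and Ppp1r3b (1.39), which targets a phosphatase to glycogen. Other routes around glycolysis differed in direction. All 5 genes of serine synthesis and use fell, such as Phgdh (-0.68) and Shmt2 (-0.35). Of 11 genes of pyruvate oxidation 0 rose and 5 fell, and of 19 in the citric acid cycle 1 rose and 9 fell. Against these, 5 of 7 genes of gluconeogenic and glyceride steps rose and 0 fell, and of 7 hexosamine genes 2 rose and 1 fell. In TfhA_4e4 against Tfh2_4e4, Slc2a3 was lower (-1.21 ± 0.14, edgeR adjusted p = 3.12e-09) and Slc2a6 higher (1.28). There, where 15.5% of all genes were higher and 17.4% lower, 4 of 5 serine genes were higher, led by Psat1 (1.67) and Shmt2 (1.20), as were 6 of 19 in the citric acid cycle. Of 7 other pentose genes tested 0 were higher and 1 was lower. That was Prps1 (-1.24), which makes phosphoribosyl pyrophosphate from the ribose phosphate of the pentose pathway. Of the 2 tested partners of the lactate carriers 1, Emb, was lower (-0.93). In Tfh5_4e4 against Tfh2_4e4, Slc2a3 (-0.88), Bsg (-0.42), Pgm1 (-0.61) and Ppp1r3b (-0.94) were lower.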

How the data were processed

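The authors deposited 1 table of raw counts per library; the deposited values were whole counts of 3′ reads (Lexogen QuantSeq, per the labels' protocols). STAR 2.7.2b, featureCounts 1.6.4 and mm10 are named without roles per the submitters' processing notes; strand and multi-mapping rules are not given in the sources used here. No count columns were left unused. Of 27179 identifiers 25275 matched a RefSeq GRCm38.p6 symbol. The unmatched 1904 held 48.77% of all counts and stayed in the library totals.

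All 34 libraries entered 1 fit in edgeR 4.0.16 (R 4.3.3) with TMM factors, its filterByExpr filter, which left 11357 genes, and quasi-likelihood tests (two-sided). Benjamini-Hochberg adjustment covered every gene tested, with a threshold of 0.05. Log2 CPM used a prior count of 1. Isoform shares were tested by exact permutation (scipy 1.17.1) in families with at least 20 counts per library; the smallest p they allow is 0.00216 (6 against 6 libraries) or 0.00433 (5 against 6). Alternatives were RLE factors, no low-count filter, DESeq2 1.42.0, limma-voom (limma 3.58.1), only the groups compared, replicate block, range of replicate numbers, mitochondrial rRNA covariate, the 2 largest identifiers left out, and single libraries or a pair left out. For shares the alternative value was the log2 ratio of counts plus 0.5.

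Members and lists were chosen with earlier results of these data known. Values per library are given for members that passed in at least 1 comparison and averaged 3 or more on the log2 CPM scale, as far as the results turn on them; other pathway genes named are up to 2 per list by smallest adjusted p. 3′ words came from GENCODE M21 transcripts.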

Additional observations from a re-analysis of the deposited data

Results flagged for a closer look

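In groups of 5 or 6 libraries, a library was singled out where its gap to the nearest other, over the range of the group, was above Dixon's critical value. Of 204 groups tested this picked 13, in 10 libraries; chance picks about 5%. Pgk1, the phosphoglycerate kinase, had 3 of them, all high: 24.9 CPM in Tfh2_2e4 replicate 6 (others 2.20 to 8.30), 16.9 CPM in Tfh2_4e4 replicate 4 (others 6.91 to 10.1) and 14.9 CPM in Tfh5_4e4 replicate 5 (others 3.79 to 6.90).

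Tfh2_4e4 replicate 4 was also lowest for Hk1 at 156.9 CPM (others 193 to 212) and for the lactate exporter Slc16a3 at 219 CPM (others 274 to 301). Tpi1 was highest in Tfh2_6e4 replicate 3 at 811 CPM (others 555 to 643). Pfkfb3 stood highest in Tfh2_4e4 replicate 6 at 66.4 CPM (others 50.5 to 55.5). Tfh2_1e4 replicate 4 was highest for Pgam1 at 11.6 CPM (others 5.22 to 6.92) and for Slc16a1 at 52.8 CPM (others 38.7 to 42.9).

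Eno3 was highest in Tfh2_6e4 replicate 5 at 8.54 CPM (others 2.50 to 4.41) and lowest in TfhA_4e4 replicate 1 at 5.37 CPM (others 9.58 to 10.8). Within TfhA_4e4, Tkt was lowest in replicate 5 at 77.9 CPM (others 96.8 to 103.9) and Rpia highest in replicate 6 at 26.6 CPM (others 20.1 to 21.5).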

How the results depend on the processing

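The mitochondrial rRNA covariate lowered the number of members past the threshold for TfhA_4e4 against Tfh2_4e4 from 18 to 8. It also turned Ldha in TfhA_4e4 against Tfh5_4e4 from -0.02 to 0.47 (edgeR adjusted p = 0.021). The cause was not tested, and the count over all genes under that covariate is not given here. For Tfh2_6e4 against Tfh2_4e4 the count of 1 became 2 with the replicate block or the range of replicate numbers, 0 without Tfh2_4e4 replicate 3 and Tfh2_2e4 replicate 6, and 0 to 2 when single libraries were left out. For Tfh5_4e4 against Tfh2_4e4 it was 6 to 13 when single libraries were left out, against 10. The other counts of members stayed within 1.5 times under the alternatives run. Libraries that share a number formed 80 pairs, of which 15 had a correlation over 0.1 in their deviations from group means. The mean correlation was 0.049 for these pairs and -0.0098 for other pairs between groups. Numbers were not taken to pair samples, but their range went with levels. In Tfh2_4e4, Tfh2_6e4, Tfh5_4e4 and TfhA_4e4 every library numbered up to 3 gave members a larger share of counts than every library numbered above 3. In Tfh2_1e4 and Tfh2_2e4 these shares overlapped. With that range as a factor 13 gene calls were added and 0 lost. What lies behind the split was not tested. The replicate block gave 15 members for Tfh5_4e4 against Tfh2_4e4, and of 306 gene results it lost 0 and added 16 calls. Of 131 gene and share calls, 97 passed under each alternative and 34 were lost under at least 1, 25 of them on leaving out a single library. Depth limits the scarce genes most: Gapdh had 930 counts and Pfkfb2 757 over all libraries.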

Other observations

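Other branches of the same network were counted beside those described above. Along the Tfh2 numbers, where 24.1% of all genes rose and 22.8% fell, 5 of 7 tested genes of gluconeogenic and glyceride steps rose, among them the glucose 6-phosphate carrier Slc37a4 (0.77 ± 0.05 per doubling) and pyruvate carboxylase Pcx (1.14 ± 0.08), whose mean went from 2.49 CPM in Tfh2_1e4 to 17.3 CPM in Tfh2_6e4. The hexosamine branch, which makes the sugar donors of glycosylation, had 2 rises and 1 fall among 7 genes, close to those shares.

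In TfhA_4e4 against Tfh2_4e4, where 15.5% of all genes were higher and 17.4% lower, both genes of the entry enzyme of that branch changed, in opposite directions. Gfpt2 was lower (-3.40 ± 0.26, edgeR adjusted p = 1.93e-14), at 2.04 CPM ± 1.27 (SD, n = 5) against 20.7 CPM ± 3.59 (n = 6), and Gfpt1 was higher (0.59 ± 0.18, edgeR adjusted p = 0.00933). The malic enzyme gene Me2, which makes pyruvate from malate, was lower (-1.80 ± 0.12), at 36.1 CPM ± 5.01 (n = 5) against 126 CPM ± 18.5 (n = 6). Pck2, the mitochondrial phosphoenolpyruvate carboxykinase, was higher (2.26 ± 0.19), at 70.4 CPM ± 5.55 (n = 5) against 14.7 CPM ± 5.77 (n = 6). Of 14 other glycogen genes 2 were higher and 7 lower, with Pgm2l1 at -2.24 ± 0.21 and the glycogen primer Gyg at 0.88 ± 0.19.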
